A study of Mus musculus with 18 samples.

Results

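The Tomm, Timm and Chchd genes encode the machinery that brings proteins into mitochondria and a family of small mitochondrial proteins with a coiled-coil-helix domain. They were taken as every entry of the expression table whose mouse symbol starts with Tomm, Timm or Chchd followed by a digit, without pseudogenes. This gave 36 of the 54307 genes in the table, and 34 of them were among the 19612 genes that reached a value of 10 in 3 or more libraries, the minimum for a test. Timm8a2 (highest value 6.06, in 1 neuron cell library) and Tomm20l (highest value 12.2, also in neuron cells) were not tested. The rule used names and no values, but the members and the lists of other genes were chosen with earlier results of these data known.

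Poly(A) RNA was sequenced from primary mouse brain cultures of 3 kinds, astrocytes, microglia and neurons. It was also sequenced from the small extracellular vesicles (sEVs) these cells release, which are particles enclosed by a lipid bilayer, and the cell RNA came from part of the cells that had given the sEVs. Each of the 6 groups (astrocyte cells, astrocyte sEVs, microglia cells, microglia sEVs, neuron cells and neuron sEVs) had 3 replicates, 18 libraries in all, and no treatment, strain or age is stated in the labels. The question was which mRNAs differ between vesicles and their source cells, and whether this depends on the cell type. Nothing in the labels ties the 3 libraries of a group to separate cultures, so p-values measure the spread between libraries, which may be technical. For differences between sEVs and cells this spread was pooled over all 18 libraries, so a call in 1 type also depends on the other types. The groups were not equally even. Replicates correlated at 0.809 to 0.865 in astrocyte and microglia sEVs and at 0.911 to 0.948 in the other groups. A poly(A) library measures RNA, not protein, and in bulk samples fewer cells of a type and less RNA per cell cannot be told apart.

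Almost all mitochondrial proteins are made in the cytosol and imported. They pass the outer membrane through the TOM complex, a channel (Tomm40) with receptors (Tomm20, Tomm22, Tomm70a) and small subunits (Tomm5, Tomm6, Tomm7). From there TIM23 and its motor take proteins with a presequence into the matrix, the small Timm chaperones carry membrane proteins across the intermembrane space to TIM22, and Chchd4 (MIA40) traps small proteins there by oxidizing paired cysteines.

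Values are the authors' normalized counts. A library's values summed to 36947400 to 69276600, and these sums are not read depth. Genes at a value of 10 or more numbered 15700 to 16094 in astrocyte cells and 11470 to 13962 in their sEVs, 13494 to 13804 against 7840 to 10059 in microglia, and 17063 to 18131 against 15157 to 15951 in neurons. RNA encoded by the mitochondrial genome took 0.939 to 7.10% of the values in cell libraries and 0.0614 to 0.515% in sEV libraries. A single ferritin gene, Ftl1, took 0.28 to 1.41% in cells and 3.96 to 22.0% in sEVs. The 6 markers fixed for each culture's own type summed to 907412 to 1132720 in astrocyte cells and 405911 to 677315 in astrocyte sEVs, 68893 to 81911 and 6629 to 14188 in microglia, and 211802 to 255748 and 64823 to 89593 in neurons. Of the microglia markers Tmem119 was at 0 in all microglia sEV libraries. Markers of other cell types were also present in both cells and sEVs. The 6 oligodendrocyte lineage markers summed to 220193 to 408787 in astrocyte cells and 72680 to 162029 in their sEVs, and to 19859 to 78837 and 5488 to 7963 in neurons. Astrocyte markers in neuron libraries summed to 118845 to 134226 in cells and 73351 to 111247 in sEVs. In microglia libraries they summed to 3715 to 13783 in cells and 3628 to 4642 in sEVs. Neuron markers in microglia libraries summed to 112 to 290 in cells and 106 to 2548 in sEVs. Fibroblast and meningeal markers summed to 7966 to 12172 and 1289 to 3242 in astrocytes, 357 to 11226 and 0 to 383 in microglia, and 8212 to 11568 and 2127 to 7905 in neurons. What these library measures contribute to the differences below was not tested.

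More import and CHCHD mRNAs were higher in sEVs than lower, the reverse of all genes tested. Chchd4 and the small TOM subunits Tomm5 and Tomm6 had the largest increases. The genes tested include some without a coding sequence and were not matched to the members for level. Differences are given as log2 of sEVs minus cells, on log2(normalized count + 1), from limma fitted over all genes, and a member counts as called when its p, adjusted by Benjamini-Hochberg over all genes tested, is below 0.05. Over the mean of the 3 cell types 14 of the 34 tested members were called higher in sEVs and 4 lower, where 12% of all genes tested were called higher and 37.1% lower. The median difference was 0.08 for the members and -0.93 for all genes. Quantile normalization, which forces all libraries to the same distribution, moved the all-gene median by 1.0 and turned the 2355 higher and 7283 lower calls of all genes into 4711 and 4225. The members then had 16 higher and 4 lower calls, and their median lay 0.40 above that of all genes instead of 1.02. The members together took 0.131% ± 0.0064 (SD, n = 3) of the values in microglia cells and 0.239% ± 0.0182 in microglia sEVs, 0.269% ± 0.0146 and 0.325% ± 0.0283 in neurons, and 0.259% ± 0.0120 and 0.261% ± 0.0567 in astrocytes.

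In astrocytes 9 members were called higher and 5 lower (8% and 18.6% of all genes tested), in microglia 12 and 0 (5.08% and 21.2%), and in neurons 12 and 3 (11.1% and 18.9%). Under quantile normalization the members' counts were 9 and 4, 14 and 0, and 15 and 3, while those of all genes moved from 1569 higher and 3646 lower to 2624 and 2681 in astrocytes, from 996 and 4151 to 2957 and 2402 in microglia, and from 2185 and 3705 to 3615 and 3439 in neurons. With all libraries set to the same total, the members had 5 higher and 6 lower calls in astrocytes and 7 and 3 in neurons. The higher calls lost in neurons were those of Chchd1, Timm8a1, Timm10b, Timm17a and Timm23 (limma adjusted p = 0.094 to 0.143). In astrocytes they were those of Tomm70a, Chchd5, Timm13 and Timm8b (adjusted p = 0.0522 to 0.12). None of the 59 called differences between sEVs and cells changed sign in any alternative tried. In microglia 5 members had a lower value at an unadjusted p under 0.05 in limma, the only tool run. The 0 lower calls there became 3, 4 and 4 without microglia sEV replicate 1, 2 or 3, and 2 without astrocyte sEV replicate 1 or 2. Without microglia cell replicate 3 the 12 higher calls became 7, and without astrocyte cell replicate 3 the 5 lower calls in astrocytes became 3.

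Tomm5, Tomm6, Timm8b, Timm13, Timm17a, Chchd4 and Chchd5 were called higher in sEVs of all 3 cell types, 7 of 34 members where 2.35% of all genes tested had 3 such calls. With all libraries at the same total this was left for Chchd4, Tomm5 and Tomm6. No member was called lower in all 3 types (4.59% of all genes), and 1, Tomm40, was lower in all 3 at an unadjusted p under 0.05. Tomm40 was called lower in all 3 without astrocyte sEV replicate 1 or 2 or microglia sEV replicate 1, and Timm50 without astrocyte sEV replicate 1. All 3 sEV libraries lay above all 3 cell libraries for 9 members in astrocytes, 15 in microglia and 19 in neurons (15.3%, 8.45% and 22.7% of all genes tested), and below them for 6, 5 and 5 (27.2%, 24.9% and 34.2%). A further 14 members were called in no cell type.

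**Figure D1:**
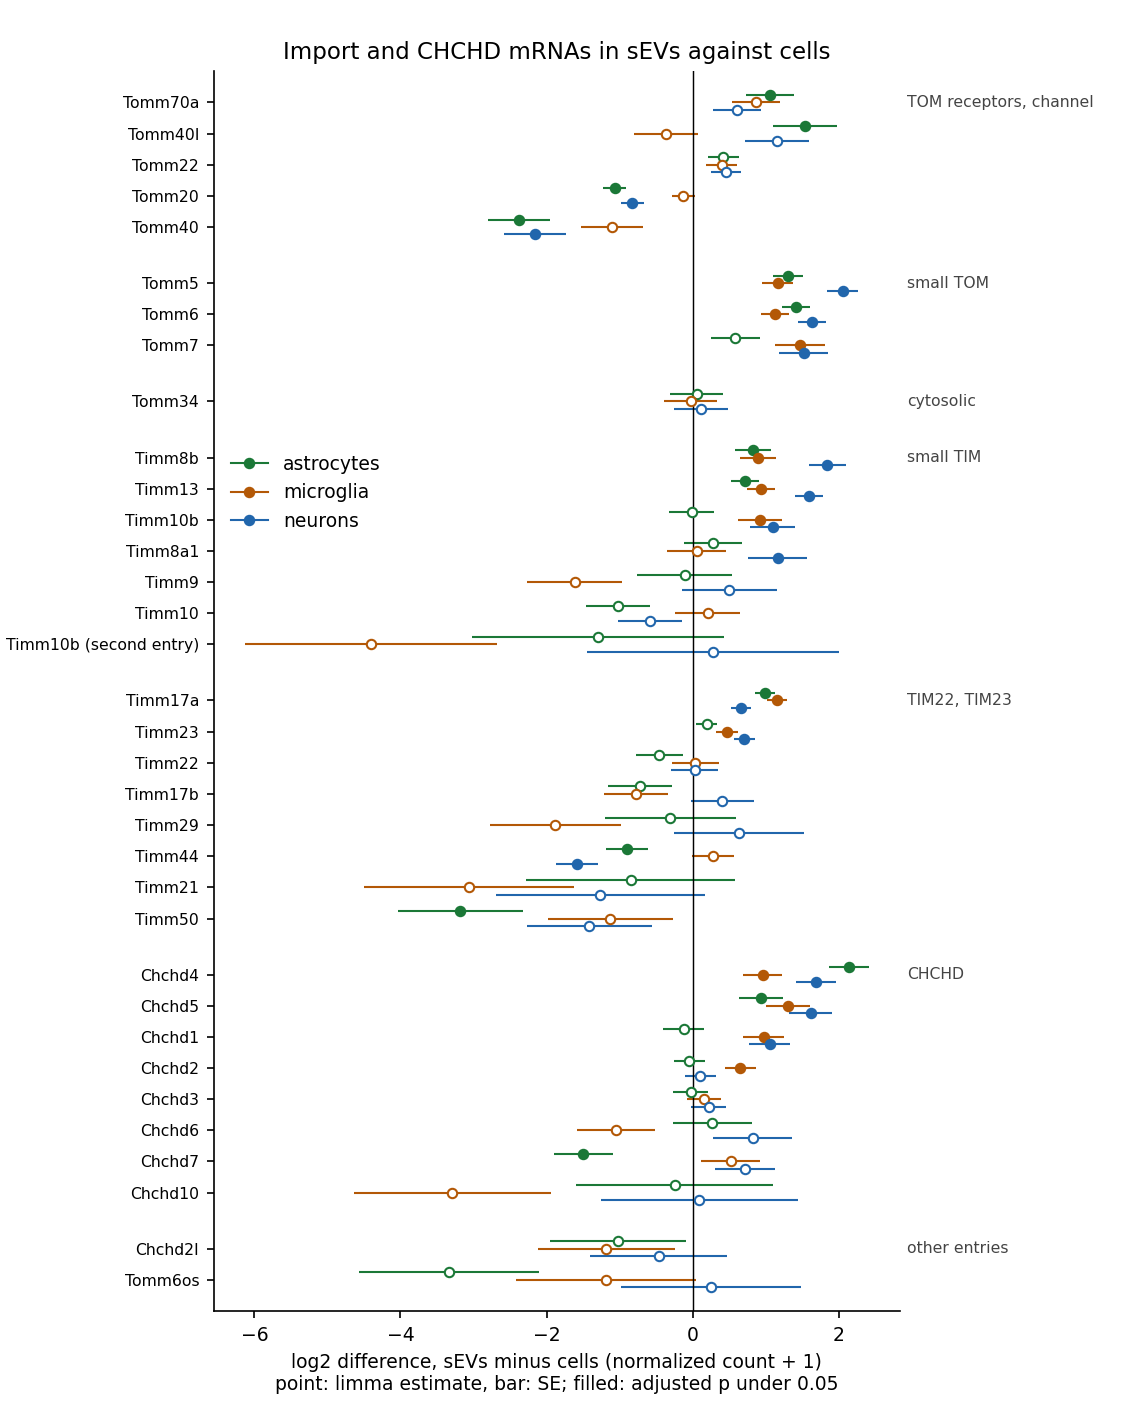
Each point is the log2 difference of 1 member between sEVs and cells of 1 cell type (green astrocytes, orange microglia, blue neurons), with the SE of the limma fit as a bar and a filled point for an adjusted p under 0.05; members are ordered by role. The small TOM subunits stand to the right of 0 in all 3 colours, from 0.58 to 2.06, while the channel Tomm40 stands to the left, from -2.37 to -1.10.

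The TOM receptors and channel went in both directions. Of the 5 tested, Tomm70a, Tomm40l and Tomm22 were called higher over the mean of the cell types and Tomm40 and Tomm20 lower. Tomm40 (ENSMUSG00000002984) forms the pore of the outer membrane. Its normalized counts were 3589, 3739 and 4057 in astrocyte cells and 425, 1637 and 560 in astrocyte sEVs. In neurons they were 3841, 3144 and 4017 in cells and 963, 925 and 614 in sEVs, and in microglia 2555, 2776 and 2695 against 1866, 785 and 1325. Every sEV library lay below every cell library of its type, which held for no other member in all 3 types. Tomm40 fell by 2.37 on the log2 scale in astrocytes (SE 0.43, limma adjusted p = 0.00076) and fell by 2.15 in neurons (SE 0.43, adjusted p = 0.00123), and the microglia difference was -1.10 (SE 0.43, adjusted p = 0.0719). The microglia value passed without astrocyte sEV replicate 1 or 2 or microglia sEV replicate 1 (adjusted p = 0.0452, 0.0144 and 0.034).

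Tomm40l is a paralogue of Tomm40, also placed in the outer membrane. It was at 1257, 1346 and 1839 in astrocyte cells and at 4028, 5966 and 3190 in their sEVs, at 725, 1078 and 1172 against 345, 744 and 1654 in microglia, and at 2125, 2737 and 2578 against 4892, 6585 and 5183 in neurons. The sEV libraries were above the cells in astrocytes and neurons and overlapped them in microglia. The difference was 1.54 in astrocytes (SE 0.44, limma adjusted p = 0.0175), 1.16 in neurons (SE 0.44, adjusted p = 0.0599) and -0.37 in microglia (SE 0.44, adjusted p = 0.633). The astrocyte call was lost without astrocyte cell replicate 1 or 2 or sEV replicate 2 (adjusted p = 0.0621, 0.0537 and 0.0665). The ratio of Tomm40l to Tomm40 counts, not divided by length, went from 0.388 ± 0.0569 (SD, n = 3) in astrocyte cells to 6.27 ± 2.95 in their sEVs, from 0.689 ± 0.164 to 6.88 ± 1.69 in neurons, and from 0.369 ± 0.0773 to 0.794 ± 0.548 in microglia. Its libraries did not overlap between cells and sEVs in astrocytes and neurons, where the lowest sEV ratio was 3.64 and 5.08 and the highest cell ratio 0.453 and 0.871. The annotated principal transcript of Tomm40l shares 3304 bases (70.1%) with Nr1i3 on the opposite strand, and the kit does not mark strand; Nr1i3 itself was listed at 0 to 10.6 in the 18 libraries.

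Tomm20, the receptor for presequences, had 10507, 9281 and 11762 in astrocyte cells and 4488, 5875 and 4713 in astrocyte sEVs. In neurons it had 12479, 14021 and 13146 against 7616, 8612 and 6283. In microglia it had 8512, 7705 and 8651 against 6964, 6839 and 9171. The sEV libraries were lower, without overlap, in astrocytes and neurons, and the microglia groups overlapped. Tomm20 fell by 1.07 in astrocytes (SE 0.16, limma adjusted p = 0.000133) and by 0.83 in neurons (SE 0.16, adjusted p = 0.00087), against -0.13 in microglia (SE 0.16, adjusted p = 0.653). Its sequence is shared with 4 processed pseudogenes at 95% identity or more, so its counts are uncertain.

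Tomm70a, the receptor for carrier proteins, moved the other way. It stood at 1425, 1132 and 1017 in astrocyte cells and 2263, 3449 and 1906 in their sEVs, at 2083, 2119 and 1311 against 2439, 5185 and 2782 in microglia, and at 2815, 3177 and 2218 against 3483, 5263 and 3848 in neurons. No sEV library was as low as a cell library of its type. The difference was 1.06 in astrocytes (SE 0.33, limma adjusted p = 0.0265), 0.87 in microglia (SE 0.33, adjusted p = 0.0658) and 0.61 in neurons (SE 0.33, adjusted p = 0.19). For Tomm70a the astrocyte call was lost without astrocyte cell replicate 2 or 3 or sEV replicate 2 (adjusted p = 0.0711, 0.09 and 0.102), and the microglia difference passed without microglia sEV replicate 1 (adjusted p = 0.0332). Tomm22, the central receptor that joins the others to the channel, had differences of 0.40 to 0.46, called in no single type, and rose by 0.43 in the mean of the types (SE 0.12, limma adjusted p = 0.00877).

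The 3 small TOM subunits all rose in the mean of the cell types. Tomm5, Tomm6 and Tomm7 are single-span proteins that sit around the channel and stabilize it. Their whole coding sequences are printed because they are the shortest of all members, 156 to 225 bases with the stop codon, and were among those with the largest increases. The sequences are those of the GENCODE vM21 transcripts on GRCm38, 5′ to 3′ on the minus strand, introns removed, with start and stop codons in capitals. Tomm5 spans chr4:45105610-45108033, Tomm6 chr17:47687192-47688026 and Tomm7 chr5:23839813-23844073, introns included.
Tomm5: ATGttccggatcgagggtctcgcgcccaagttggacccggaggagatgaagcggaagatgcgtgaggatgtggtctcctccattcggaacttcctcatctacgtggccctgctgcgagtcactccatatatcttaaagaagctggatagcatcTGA
Tomm6: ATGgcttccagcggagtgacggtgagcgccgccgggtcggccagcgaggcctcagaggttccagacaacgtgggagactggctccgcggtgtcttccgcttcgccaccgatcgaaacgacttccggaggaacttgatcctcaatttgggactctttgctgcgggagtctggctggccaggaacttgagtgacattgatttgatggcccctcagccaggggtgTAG
Tomm7: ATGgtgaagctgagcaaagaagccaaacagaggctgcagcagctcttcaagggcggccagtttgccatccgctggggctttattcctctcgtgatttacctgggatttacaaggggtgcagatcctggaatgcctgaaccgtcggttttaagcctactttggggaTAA

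Tomm5 was at 1646, 1724 and 1659 in astrocyte cells and at 5090, 4030 and 3495 in astrocyte sEVs. In microglia it was at 1012, 1124 and 1046 against 2317, 3124 and 1864, and in neurons at 1663, 1775 and 1641 against 6992, 7099 and 7017. All sEV libraries lay above all cell libraries of their type, and the neuron sEVs were the highest of the 18. Tomm5 rose by 1.31 in astrocytes (SE 0.21, limma adjusted p = 0.000307), 1.17 in microglia (SE 0.21, adjusted p = 0.00077) and 2.06 in neurons (SE 0.21, adjusted p = 2.92e-06).

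Tomm6 had 1127, 1312 and 1138 in astrocyte cells and 3564, 2472 and 3671 in their sEVs. Its microglia values were 2582, 2425 and 2430 in cells and 5334, 5386 and 5537 in sEVs, and its neuron values 2221, 2433 and 2300 in cells and 8203, 5734 and 8001 in sEVs. Again no sEV library overlapped the cells. Tomm6 rose by 1.42, 1.13 and 1.64 in astrocytes, microglia and neurons (SE 0.19 each, limma adjusted p = 7.28e-05, 0.000526 and 1.28e-05). Tomm6 shares 656 bases with a read-through gene on its own strand, Gm21981, and 93 bases with Usp49 on the opposite strand. Usp49 was at 103 to 219 in astrocyte cells and 1973 to 3205 in their sEVs, at 31.7 to 82.9 and 0 to 35.3 in microglia, and at 224 to 250 and 2212 to 2847 in neurons. The part of these overlaps in the Tomm6 values was not tested.

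Tomm7 had 811, 1064 and 1194 in astrocyte cells and 1656, 1185 and 1770 in their sEVs, with 1 sEV library just below the highest cell library. It had 762, 509 and 591 against 1493, 2017 and 1635 in microglia and 1085, 1041 and 1106 against 3596, 1814 and 4550 in neurons, without overlap. Tomm7 rose by 1.47 in microglia (SE 0.34, limma adjusted p = 0.00454) and 1.52 in neurons (SE 0.34, adjusted p = 0.0029), and the astrocyte difference was 0.58 (SE 0.34, adjusted p = 0.232). The F test between cell types did not pass (adjusted p = 0.264).

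Tomm34, a cytosolic cochaperone that keeps precursors unfolded, showed no difference past the threshold. Its values were 1881, 1866 and 1440 in astrocyte cells and 2359, 1383 and 1746 in sEVs, 1562, 1599 and 2001 against 889, 3174 and 1673 in microglia, and 1896, 1907 and 2062 against 1881, 2027 and 2479 in neurons. The groups overlapped in every type, and the differences of 0.06, -0.03 and 0.11 each had an SE of 0.37 (limma adjusted p = 0.985, 1 and 0.877).

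**Figure D2:**
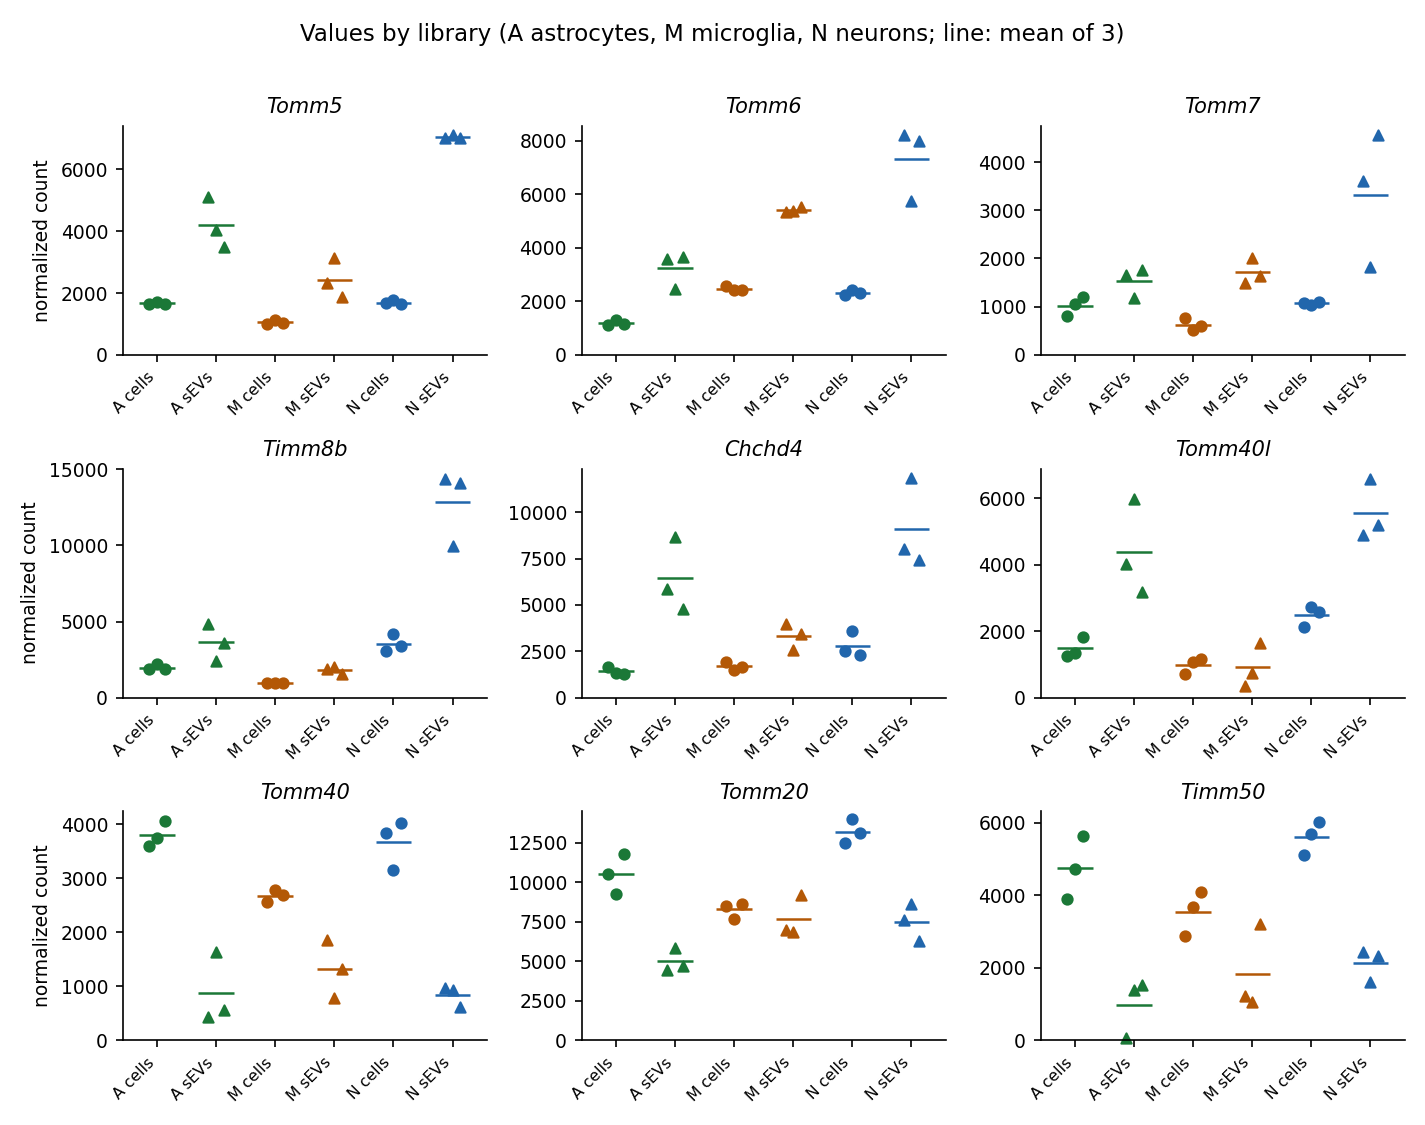
Normalized count (linear axis from 0) of 9 members in each of the 18 libraries, cells as circles and sEVs as triangles, with a line at the mean of 3. For Tomm5, Tomm6, Timm8b and Chchd4 the triangles stand above the circles of the same colour, and for Tomm40 below them; Tomm20 overlaps in microglia, where the cells lie between 7705 and 8651 and the sEVs between 6839 and 9171.

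The small Timm chaperones form rings in the intermembrane space, Timm9 with Timm10 and Timm8 with Timm13, and carry hydrophobic precursors. Of 7 tested entries (Timm10b stands in the table under 2 identifiers), 3 rose over the mean of the cell types and none fell, also at an unadjusted p under 0.05. The proteins share 2 pairs of cysteines, each spaced by 3 residues, and all 8 small Timm coding sequences held 2 such pairs of cysteine codons. Timm8b and Timm13 are printed because they were called higher in all 3 cell types, with the 4 cysteine codons of these pairs in capitals. Timm8b spans chr9:50603956-50605100 on the plus strand and Timm13 chr10:80900161-80900743 on the minus strand of GRCm38.
Timm8b: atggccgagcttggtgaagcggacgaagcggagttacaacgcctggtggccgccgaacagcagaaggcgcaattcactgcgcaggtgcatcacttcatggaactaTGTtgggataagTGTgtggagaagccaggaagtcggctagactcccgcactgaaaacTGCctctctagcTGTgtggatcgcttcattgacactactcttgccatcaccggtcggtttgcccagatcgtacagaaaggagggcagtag
Timm13: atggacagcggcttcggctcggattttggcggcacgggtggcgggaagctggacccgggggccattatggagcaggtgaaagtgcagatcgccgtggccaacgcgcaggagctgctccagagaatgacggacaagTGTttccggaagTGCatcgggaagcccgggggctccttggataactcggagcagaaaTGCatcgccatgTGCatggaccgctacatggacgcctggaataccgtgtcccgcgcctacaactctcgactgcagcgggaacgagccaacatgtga

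Timm8b had 1877, 2212 and 1856 in astrocyte cells and 4869, 2442 and 3623 in astrocyte sEVs. It had 996, 993 and 945 against 1898, 2009 and 1570 in microglia and 3056, 4156 and 3421 against 14381, 9986 and 14130 in neurons. The groups did not overlap in any type, and the neuron sEV libraries were the highest of all. Timm8b rose by 0.83 in astrocytes (SE 0.25, limma adjusted p = 0.0221), 0.89 in microglia (SE 0.25, adjusted p = 0.0148) and 1.85 in neurons (SE 0.25, adjusted p = 4.14e-05). The astrocyte call was lost without astrocyte cell replicate 1 or 3 or sEV replicate 1 or 3 (adjusted p = 0.0678, 0.0674, 0.102 and 0.0501) and at equal library totals (adjusted p = 0.12).

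Timm13, the ring partner of the Timm8 proteins, had 3580, 3778 and 3598 in astrocyte cells against 4485 to 7132 in sEVs, 3131 to 4147 against 6340 to 7813 in microglia, and 4394 to 5536 against 12474 to 17792 in neurons. It rose by 0.72, 0.94 and 1.59 (SE 0.19 each, limma adjusted p = 0.0126, 0.0022 and 1.59e-05), with no overlap in any type. Timm8a1, the paralogue of Timm8b whose human counterpart is mutated in a deafness-dystonia syndrome, was called higher in neurons alone, by 1.16 (SE 0.40, limma adjusted p = 0.0403), and its differences in astrocytes and microglia were 0.28 and 0.06. A test of Timm8a1 between cell types did not pass (F test adjusted p = 0.31). The neuron call of Timm8a1 was lost without any 1 of the 6 neuron libraries (adjusted p = 0.0658 to 0.116), any 1 of the 3 astrocyte cell libraries or microglia cell replicate 1 or 2 (adjusted p = 0.0501 to 0.052), and without microglia sEV replicate 2 it rose in the mean of the types (0.71, adjusted p = 0.000538).

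The other ring members did not rise together. Timm9 had differences of -0.11, -1.61 and 0.51 in astrocytes, microglia and neurons (SE 0.65 each) and Timm10 of -1.02, 0.21 and -0.59 (SE 0.44 each), and neither was called. The microglia value of Timm9 passed without microglia sEV replicate 1 or 3 (adjusted p = 0.0466 and 0.0272). Timm10b, which sits on the TIM22 complex, rose under its main identifier (ENSMUSG00000089847) by 0.92 in microglia and 1.10 in neurons (SE 0.31 each, limma adjusted p = 0.0371 and 0.0129) and was at -0.01 in astrocytes. Its microglia call was lost without any 1 of the microglia cell replicates or sEV replicate 2 or 3 (adjusted p = 0.0527 to 0.111), and its neuron call without neuron cell replicate 1 or sEV replicate 1 or 3 (adjusted p = 0.0533, 0.0565 and 0.0535). The second Timm10b entry (ENSMUSG00000110234), which GENCODE vM21 calls Gm45799 and which shares exon sequence with the first, was low. It had 130, 44.1 and 102 in astrocyte cells and 218, 0 and 186 in sEVs, 58, 19.8 and 153 against 18.7, 0 and 0 in microglia, and 222, 196 and 96.2 against 203, 87.5 and 423 in neurons. Reads of the 2 entries cannot be told apart over the shared exons, its log2 differences (-1.30, -4.41 and 0.28, SE 1.72 each) rest partly on the pseudocount where libraries were at 0, and none was called. In microglia the second entry passed without astrocyte sEV replicate 2 or microglia sEV replicate 1 (adjusted p = 0.00862 and 0.0273).

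The TIM22 and TIM23 translocases split by subunit. Of 8 members tested, Timm17a and Timm23 rose over the mean of the cell types and Timm50 and Timm44 fell. Timm17a, which with Timm23 forms the inner membrane translocase, had 7107, 6866 and 7346 in astrocyte cells and 16184, 12175 and 14447 in their sEVs. In microglia it had 11026, 10653 and 10569 against 21838, 24180 and 25796, and in neurons 6154, 9067 and 6818 against 12390, 11467 and 10568. The groups did not overlap in any type. Timm17a rose by 1.0, 1.15 and 0.66 (SE 0.14 each, limma adjusted p = 7.88e-05, 1.79e-05 and 0.00184). The neuron call was lost with all libraries at the same total (adjusted p = 0.139).

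Its paralogue Timm17b, encoded on the X chromosome, was called in no type (-0.72, -0.78 and 0.41, SE 0.44 each). The ratio of Timm17a to Timm17b counts was 4.02 ± 0.655 (SD, n = 3) in astrocyte cells and 13.9 ± 5.45 in sEVs, 10.4 ± 2.33 and 42.6 ± 21.9 in microglia, and 6.17 ± 2.04 and 7.16 ± 1.25 in neurons. The neuron ratios overlapped, with cells up to 8.45 and sEVs down to 5.87. Timm23, the pore of the presequence translocase, rose by 0.47 in microglia and 0.71 in neurons (SE 0.15 each, limma adjusted p = 0.0293 and 0.00188) and was at 0.19 in astrocytes, and the F test between types did not pass (adjusted p = 0.198). Its microglia call was lost without any 1 of the microglia cell replicates or sEV replicate 1 or 2 (adjusted p = 0.0594 to 0.089). Its neuron call was lost at equal library totals (limma adjusted p = 0.105). Timm23 has 5 near-identical copies in the annotation, 4 of them pseudogenes, and Timm17a has 1.

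Timm50, the receptor of TIM23, had 3892, 4716 and 5632 in astrocyte cells and 64.5, 1379 and 1527 in astrocyte sEVs. It had 2866, 3674 and 4096 against 1223, 1048 and 3215 in microglia and 5100, 5677 and 6017 against 2428, 1614 and 2335 in neurons. Cells and sEVs overlapped in microglia only, through 1 sEV library at 3215. Timm50 fell by 3.18 in astrocytes (SE 0.85, limma adjusted p = 0.0124), where 1 library was at 64.5, and the differences in microglia and neurons were -1.13 and -1.42 (SE 0.85, adjusted p = 0.385 and 0.246). Without astrocyte sEV replicate 1 the astrocyte difference was -1.69 (adjusted p = 0.0062), and the differences in microglia and neurons, unchanged in size, then passed (adjusted p = 0.027 and 0.00636).

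Timm44 anchors the import motor to the translocase on the matrix side. It had 1748, 1461 and 2011 in astrocyte cells and 796, 758 and 1324 in their sEVs, and 2661, 1844 and 2111 in neuron cells against 831, 704 and 651. In microglia the cells were at 2136, 2222 and 2588 and the sEVs at 2120, 2877 and 3630. Astrocyte and neuron sEVs lay below all their cells, and only the microglia groups overlapped. Timm44 fell by 0.89 in astrocytes (SE 0.29, limma adjusted p = 0.0326) and 1.59 in neurons (SE 0.29, adjusted p = 0.000636), with 0.28 in microglia (SE 0.29, adjusted p = 0.553). The astrocyte call was lost in 4 of the fits that left out 1 astrocyte library, cell replicate 1 or 3 or sEV replicate 1 or 2 (adjusted p = 0.083, 0.114, 0.0966 and 0.0957).

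Timm22, the carrier translocase channel, Timm29, which links it to the TOM complex, and Timm21, which links TIM23 to the respiratory chain, were called in no cell type. Their differences ranged from -0.45 to 0.04 for Timm22, from -1.88 to 0.64 for Timm29 and from -3.06 to -0.85 for Timm21. Timm21 was listed at 0 in microglia sEV replicate 1 and at 268 and 199 in the others, against 348, 311 and 288 in microglia cells. Without that library Timm21 fell by 0.85 in the mean of the types (adjusted p = 0.00538) and passed in neurons (-1.26, adjusted p = 0.0157), and without microglia sEV replicate 2 or 3 it passed in microglia (adjusted p = 0.03 and 0.0437) and in the mean (adjusted p = 0.0271 and 0.0381). That library was also at 48.8 for Timm29, against 1916 and 1145 in the other microglia sEV libraries.

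Of the CHCHD members 8 were tested under their family's own names, and Chchd1, Chchd4 and Chchd5 rose over the mean of the cell types. The family is marked by pairs of cysteines spaced by 9 residues, and all 8 coding sequences held at least 2 such pairs of cysteine codons. Chchd4, the oxidoreductase that folds the others, and Chchd5 are printed in part, bases 121 to 420 of 420 and 34 to 333 of 333, because they were called higher in all 3 types, with the cysteine codons of these pairs in capitals. The Chchd4 coding sequence spans chr6:91465015-91473337 on the minus strand and Chchd5 chr2:129129856-129133298 on the plus strand of GRCm38. Chchd5 carries 4 pairs and Chchd4 carries 2.
Chchd4: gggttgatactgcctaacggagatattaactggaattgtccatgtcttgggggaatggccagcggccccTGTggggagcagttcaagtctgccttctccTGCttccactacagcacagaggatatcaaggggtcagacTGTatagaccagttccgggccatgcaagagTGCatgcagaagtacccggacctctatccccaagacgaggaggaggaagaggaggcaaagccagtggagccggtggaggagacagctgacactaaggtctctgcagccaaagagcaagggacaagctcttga
Chchd5: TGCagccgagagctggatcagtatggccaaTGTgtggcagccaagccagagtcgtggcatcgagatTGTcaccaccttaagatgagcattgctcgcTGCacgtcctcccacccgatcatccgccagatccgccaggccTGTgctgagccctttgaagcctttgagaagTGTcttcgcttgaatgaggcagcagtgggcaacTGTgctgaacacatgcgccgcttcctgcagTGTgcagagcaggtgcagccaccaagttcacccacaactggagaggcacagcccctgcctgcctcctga

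Chchd4 was at 1664, 1325 and 1283 in astrocyte cells and at 5876, 8665 and 4786 in astrocyte sEVs. It was at 1933, 1493 and 1636 against 3971, 2570 and 3408 in microglia and at 2516, 3595 and 2303 against 7993, 11823 and 7439 in neurons. Every sEV library was above every cell library of its type. Chchd4 rose by 2.14 in astrocytes (SE 0.27, limma adjusted p = 3.61e-05), the largest increase of a member in that type, by 0.96 in microglia (SE 0.27, adjusted p = 0.0169) and by 1.69 in neurons (SE 0.27, adjusted p = 0.000217). The microglia call was lost without microglia cell replicate 2 or 3 or sEV replicate 1 (adjusted p = 0.066, 0.0501 and 0.0559).

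Chchd5 had 613, 724 and 829 in astrocyte cells against 1295 to 1481 in sEVs, 297 to 350 against 615 to 987 in microglia, and 592 to 904 against 2011 to 2215 in neurons, without overlap. It rose by 0.94, 1.31 and 1.62 (SE 0.30 each, limma adjusted p = 0.0293, 0.00422 and 0.00066). The astrocyte call was lost in 4 fits that left out 1 astrocyte library, cell replicate 1 or 2 or sEV replicate 1 or 3 (adjusted p = 0.107, 0.0698, 0.0705 and 0.0512). Chchd1, a protein of the mitochondrial ribosome, rose by 0.97 in microglia and 1.06 in neurons (SE 0.28 each, limma adjusted p = 0.0189 and 0.00989) and was at -0.12 in astrocytes, where the F test between types gave an adjusted p of 0.0706. The microglia call of Chchd1 was lost without microglia cell replicate 3 (adjusted p = 0.0545).

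Chchd2, a regulator of respiration mutated in some families with Parkinson disease, rose in microglia by 0.66 (SE 0.21, limma adjusted p = 0.0327) and was at -0.05 and 0.11 in astrocytes and neurons, with an F test between types that did not pass (adjusted p = 0.199). That call was lost without any 1 of the microglia cell replicates or sEV replicate 2 (adjusted p = 0.0594 to 0.107). Its paralogue Chchd10, mutated in familial motor neuron disease, had 841, 893 and 1808 in astrocyte cells and 860, 836 and 1141 in sEVs. In microglia it had 447, 268 and 191 against 0, 138 and 177, and in neurons 2681, 4242 and 3104 against 4324, 2154 and 4605. Groups overlapped in astrocytes and neurons, all microglia sEV libraries were lower, and no difference was called (-0.24, -3.29 and 0.09, SE 1.35 each, limma adjusted p = 0.974, 0.0888 and 0.992). The microglia value rests in part on the library at 0, and passed without sEV replicate 2 or 3 (adjusted p = 0.0307 and 0.0186).

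Chchd3 and Chchd6 belong to MICOS, the complex that shapes the cristae. Chchd3 differed by -0.03 to 0.22 and Chchd6 by 0.27, -1.05 and 0.82, and neither was called. Chchd6 had 570, 509 and 556 in microglia cells and 113, 919 and 174 in microglia sEVs. Without sEV replicate 2, the library at 919, the microglia difference was -1.95 (adjusted p = 0.000112) and the neuron difference of 0.82 also passed (adjusted p = 0.0198). Chchd2l, which GENCODE vM21 lists as Zbed5 and which shares sequence with Chchd2, was at 2.67 to 87.5 in the 18 libraries and was not called.

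Chchd7 had 600, 662 and 797 in astrocyte cells and 181, 188 and 411 in astrocyte sEVs. It had 355, 342 and 305 against 648, 391 and 434 in microglia and 320, 553 and 430 against 721, 691 and 686 in neurons. The astrocyte sEVs were below their cells and those of microglia and neurons above theirs, each without overlap. Chchd7, a CX9C protein of the intermembrane space, fell by 1.49 in astrocytes (SE 0.41, limma adjusted p = 0.0133), and the differences of 0.52 and 0.72 in microglia and neurons were not called (SE 0.41, adjusted p = 0.401 and 0.212). The astrocyte call of Chchd7 was lost without astrocyte cell replicate 3 (adjusted p = 0.0524).

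Whether the sEV difference depended on the cell type was tested for each member with an F test over the 3 types. Chchd7 (limma adjusted p = 0.0184), Tomm20 (adjusted p = 0.0146) and Timm44 (adjusted p = 0.011) passed, 3 of 34 members where 21.6% of all genes tested did. For Tomm20 the astrocyte difference was 0.94 below that of microglia (SE 0.22, limma adjusted p = 0.00976) and the microglia difference 0.70 above that of neurons (SE 0.22, adjusted p = 0.0358). For Timm44 the microglia difference stood 1.87 above that of neurons (SE 0.41, limma adjusted p = 0.00431), and 1.18 above that of astrocytes without passing (SE 0.41, adjusted p = 0.0733). For Chchd7 the astrocyte difference was lower than those of microglia and neurons by 2.02 and 2.22 (SE 0.57 each, limma adjusted p = 0.0303 and 0.0374). The Chchd7 call against neurons was lost at equal library totals. It was also lost without any 1 cell library, any 1 neuron sEV library or astrocyte sEV replicate 2. Outside these 3 members, Tomm5 rose more in neurons than in microglia, with a difference of -0.89 for microglia minus neurons (SE 0.30, limma adjusted p = 0.0474), but its F test did not pass (adjusted p = 0.0801). This Tomm5 call was lost at equal library totals and without the minimum value for a test. It was also lost without any 1 cell library or neuron sEV replicate 1 or 3. Over all genes tested 13.3% were called between astrocytes and microglia, 5.09% between astrocytes and neurons and 20.7% between microglia and neurons, against 2, 1 and 3 of the 34 members. With a replicate block, which treats libraries of the same number as related, Timm44 alone passed, and Tomm20 and Chchd7 had an adjusted p of 0.0525 and 0.0708. The counts of 2, 1 and 3 members between pairs of types were then 1, 0 and 1. The count of 3 by the F test was 2 without astrocyte cell replicate 3, where Chchd7 did not pass (adjusted p = 0.0529), and 7, 5 and 6 without astrocyte sEV replicate 1, 2 or 3, 5 without microglia sEV replicate 2, 6 without neuron sEV replicate 2, 6 with all libraries at the same total and 7 with quantile normalization.

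**Figure D3:**
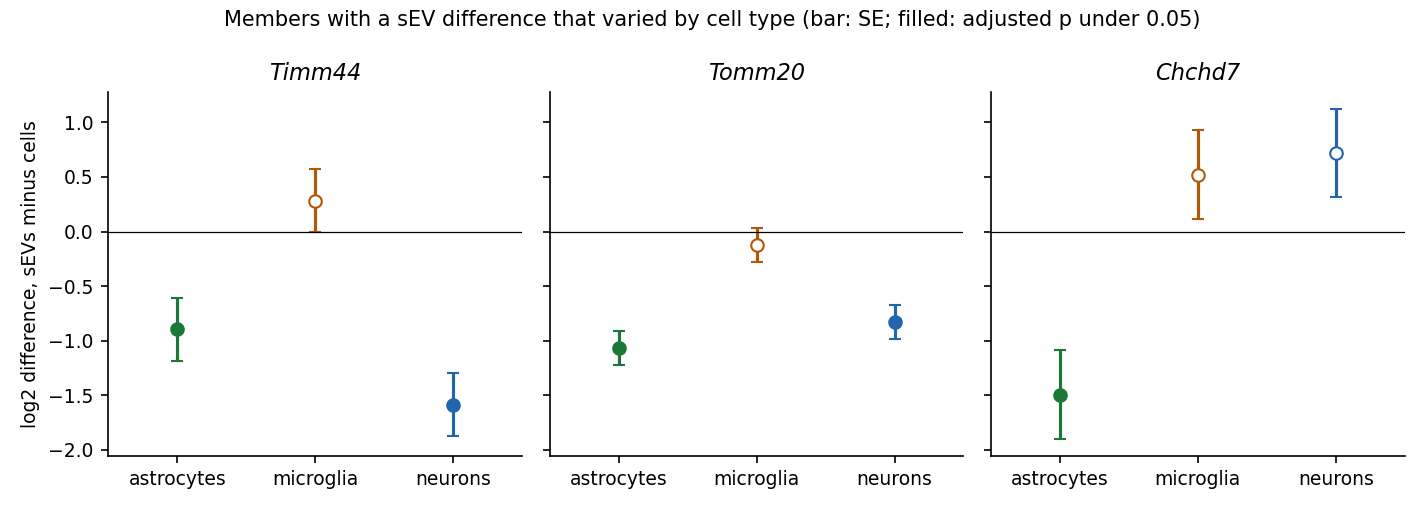
The log2 difference between sEVs and cells in astrocytes, microglia and neurons (horizontal axis) for the 3 members whose difference varied by cell type, with the SE of the limma fit as a bar and filled points for an adjusted p under 0.05. Timm44 and Tomm20 lie below 0 in astrocytes and neurons and within 0.28 of it in microglia, and Chchd7 lies below 0 in astrocytes alone.

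The members' differences varied with the length of their coding sequence. Across the 33 tested members with a coding sequence in GENCODE vM21, Spearman's rho between coding length and the sEV difference was -0.48 for the mean of the cell types, -0.27 in astrocytes, -0.48 in microglia and -0.61 in neurons. Across 15520 genes the same values were -0.22, -0.13, -0.26 and -0.14. These correlations are across genes that share the same libraries and are given as a description. Total transcript length gave -0.11 for the members and -0.10 for all genes in the mean of the cell types. There the share of G and C bases gave -0.34 (0.09 for all genes) and the length of the untranslated 3′ end 0.27 (0.06). In astrocytes these 2 gave -0.34 and 0.35 for the members, both larger in size than coding length. In microglia and neurons both were smaller in size than coding length. Of the 18 tested members with a coding sequence under 500 bases, 10 were called higher and 1 lower over the mean of the types, and of the 15 longer ones 4 and 3. Among all genes 36.2% of the 1430 short ones were called higher and 17.0% lower, against 10.2% and 38.5% of the 14090 longer ones. The share called higher was 55.6% of the short and 26.7% of the longer members.

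Exceptions stood on both sides. Tomm70a has the longest coding sequence of the members that rose, 1836 bases, and Chchd7, Timm9 and Timm10, at 258 to 273 bases, were not called higher in any type. Tomm40, Timm50 and Timm44, at 1062 to 1359 bases, were called lower over the mean of the types together with Tomm20, at 438 bases.

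**Figure D4:**
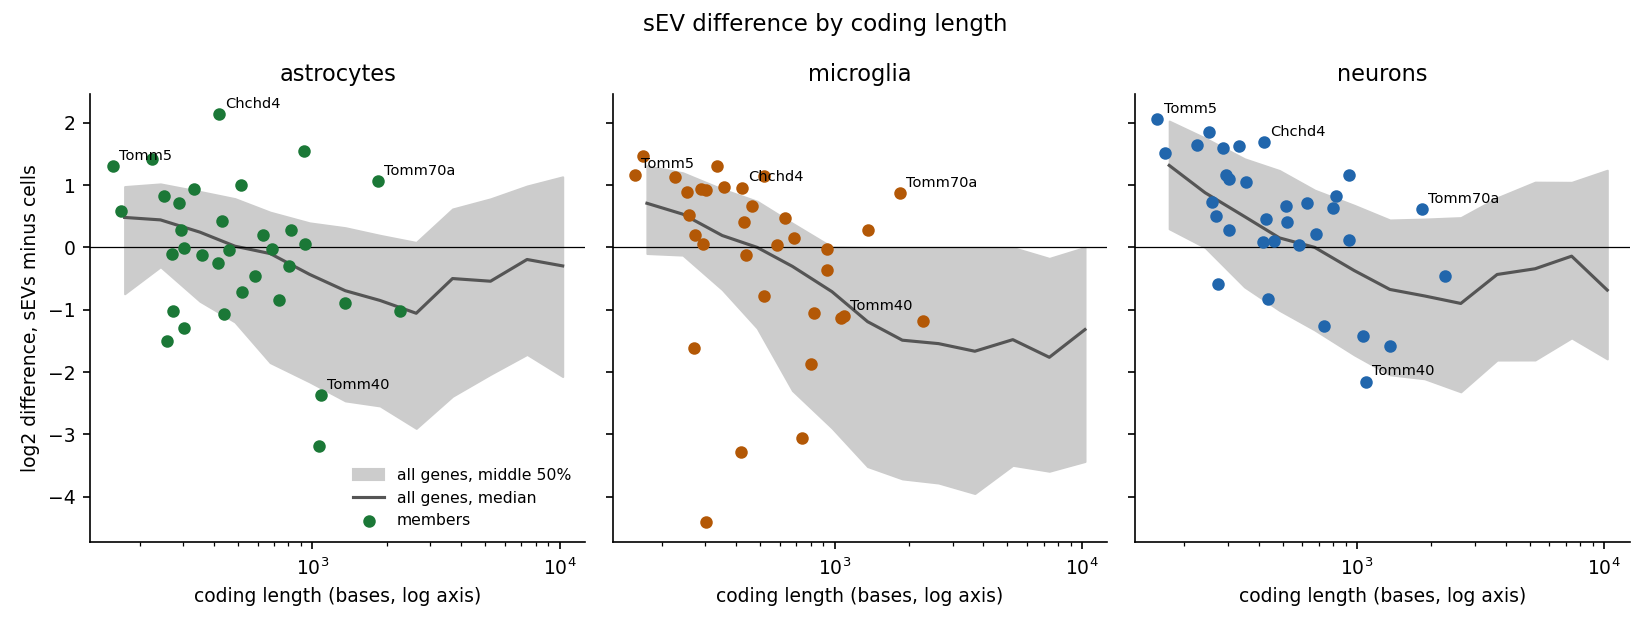
Coding length in bases (horizontal, log axis) against the log2 difference between sEVs and cells in each cell type. Coloured points are the members, the line is the median and the band the middle 50% of all genes in bins of coding length; in neurons the shortest member, Tomm5 at 156 bases, stands at 2.06 and Tomm40 at 1086 bases at -2.15.

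Part of the members also differed between the source cells, which was tested in the 9 cell libraries. Astrocyte cells were higher than microglia cells for 17 members and lower for 5 (43.6% and 20.8% of all genes tested), higher than neuron cells for 2 and lower for 9 (10.4% and 22.1%), and microglia cells were higher than neuron cells for 3 and lower for 20 (19.9% and 51.8%). Without astrocyte cell replicate 1 or 2 or neuron cell replicate 2, the 9 became 5. With all libraries at the same total the 3 pairs gave 27 and 0, 6 and 7, and 0 and 31, and with quantile normalization 14 and 3, 8 and 6, and 4 and 13. The all-gene medians, 0.84, -0.25 and -1.26 for the 3 pairs, moved by 0.70, 0.11 and -0.61 with equal totals and by -0.65, 0.48 and 1.24 with quantile normalization, and all-gene calls changed from 8028 higher and 3822 lower to 10523 and 2619 and to 5898 and 4840 for astrocytes against microglia. For astrocytes against neurons 1916 and 4065 became 4192 and 3155, and for microglia against neurons 3666 and 9530 became 5763 and 6043, with quantile normalization.

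Chchd6, a MICOS subunit, was at 4696, 5376 and 5244 in neuron cells, 1309, 1721 and 1860 in astrocyte cells and 570, 509 and 556 in microglia cells. The 3 types did not overlap, with neurons highest and microglia lowest. Astrocytes minus neurons was -1.66 (SE 0.16, limma adjusted p = 9.57e-05) and microglia minus neurons -3.22 (SE 0.16, adjusted p = 4e-07). Timm9 was at 886, 1169 and 790 in neuron cells, 654, 658 and 601 in astrocyte cells and 99.7, 120 and 95.4 in microglia cells. Astrocytes minus microglia was 2.60 (SE 0.23, limma adjusted p = 1.47e-05) and microglia minus neurons -3.15 (SE 0.23, adjusted p = 3.48e-06), so microglia were lowest.

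Timm21 ran in another order, with 3111, 2814 and 3988 in astrocyte cells, 1467, 1083 and 1372 in neuron cells and 348, 311 and 288 in microglia cells. Astrocytes were above microglia by 3.37 (SE 0.19, limma adjusted p = 1.18e-06) and above neurons by 1.33 (SE 0.19, adjusted p = 0.000892). Timm8a1, at 2105, 2474 and 2463 in astrocyte cells and 709, 675 and 776 in microglia cells, was 1.70 higher in astrocytes (SE 0.15, limma adjusted p = 1.4e-05). Timm8b was 1.85 lower in microglia than in neuron cells (SE 0.15, limma adjusted p = 6.91e-06), and Tomm6 0.96 lower in astrocyte than in neuron cells (SE 0.12, adjusted p = 0.000385).

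Genes of the same pathway under other names were followed in 3 lists. The first list held 13 other genes, taken as coding for proteins with paired cysteines spaced by 9 residues. Most encode assembly factors or subunits of the respiratory chain. Their sequences were not checked for these pairs, so the trait may not hold for all 13, Pet100 among them. In this list 11 rose over the mean of the cell types (12% of all genes tested), with a median of 0.92. None was lower at an adjusted or an unadjusted p under 0.05 in limma. Cmc2 had the largest value, at 1.88 (SE 0.24, limma adjusted p = 1.27e-05), followed by Coa5 at 1.33 (SE 0.26, adjusted p = 0.000604). Coa4 and Coa6, both cytochrome c oxidase assembly factors, were not called, at 0.16 and 0.38. By cell type the list had 3 higher calls in astrocytes, 6 in microglia and 9 in neurons, beside 8%, 5.08% and 11.1% of all genes tested.

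Among 23 import partners and processing enzymes 6 rose and 9 fell, with a median of -0.32, beside 12% and 37.1% of all genes tested and their median of -0.93. Gfer, the sulfhydryl oxidase that reoxidizes Chchd4, was at 624, 776 and 563 in astrocyte cells and 2024, 2708 and 1377 in their sEVs, at 560, 363 and 467 against 1332, 741 and 763 in microglia, and at 579, 734 and 484 against 2920, 2717 and 1740 in neurons. As with Chchd4, no sEV library overlapped the cells of its type. Gfer rose by 1.54 over the mean of the types (SE 0.21, limma adjusted p = 3.01e-05). Romo1, a short membrane protein tied to the TIM23 translocase, rose by 1.22 (SE 0.12, limma adjusted p = 1.16e-06). Agk, a subunit of TIM22, fell by 2.69 (SE 1.05, limma adjusted p = 0.0465), with microglia sEV libraries at 0, 485 and 2537.

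Mtx3, an outer membrane protein of the sorting machinery, was among the 2 lowest of the import partners over the mean of the types. It was listed at 0 in all 3 microglia sEV libraries, against 302, 533 and 269 in microglia cells. That difference was -8.46, the lowest of the list in microglia, and its size depends on the pseudocount. In neurons Mtx3 had the opposite direction, with 1009, 992 and 763 in cells and 1631, 1498 and 1074 in sEVs. In astrocytes it had 866, 913 and 768 in cells and 1980, 2650 and 1583 in sEVs, a difference of 1.26 (SE 0.41, limma adjusted p = 0.0339). Of the 5 MICOS genes, Micos10 and Micos13 rose by 1.24 and 0.96 (SE 0.11 and 0.14, limma adjusted p = 3.13e-07 and 4.62e-05), Immt, the large core subunit, fell by 0.85 (SE 0.12, adjusted p = 3.75e-05), and Apool was at 0.23.

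Several members cannot be measured cleanly from short unstranded reads. In GENCODE vM21, 11 members had a transcript of another gene at 95% identity or more over at least 300 bases, 14 were overlapped by exons of a gene on the opposite strand and 4 on the same strand. Tomm6os, an antisense RNA at the Tomm6 locus, was listed at 0 to 108, and its sEV difference was not called in any type.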

How the data were processed

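The authors deposited 1 table of normalized counts per gene and library (signal values), with a mean per group. The submitters' processing notes name Salmon 1.8.0, DESeq2 and the GRCm39 build. Per the labels' protocols, a low-input kit made cDNA from poly(A) tails, which was amplified by PCR and tagmented, without marking strand. Read depth is not given by these values, so no count model was run.

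Differences were computed on log2(normalized count + 1) with limma 3.58.1 under R 4.3.3 (trended eBayes), for genes that reached 10 in 3 or more libraries of the fit. A model with 1 mean per group, fitted to all 18 libraries, gave the sEV difference of each type, its unweighted mean over types and the F test of the type differences, and a fit of the 9 cell libraries gave the cell pairs. P-values were adjusted by Benjamini-Hochberg over all genes of a contrast, threshold 0.05. The scripts were tested on simulated data.

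Alternatives were a pseudocount of 10, no filter, all libraries at the same total, quantile normalization, a replicate block, only the libraries of the groups compared, and leaving out each library. The members and lists were chosen with earlier results of these data known. Named in full were the highest and lowest member of each role, up to 6 members by the F test and 3 per cell pair by smallest adjusted p, and of other lists the 2 highest and 2 lowest; other members were named to account for all, and Nr1i3 and Usp49 after their overlap with members was seen.

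Transcripts came from GENCODE vM21 (GRCm38, another build than the table's), which held 36 of 36 members and 99.8% of the genes tested. Coordinates of printed sequences are of that build. Near-identical copies were found with blastn 2.17.0. The deposited means were not used for any comparison.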

Additional observations from a re-analysis of the deposited data

Results flagged for a closer look

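The sEV difference of 3 members differed between the cell types by an F test in limma, where Tomm20 and Chchd7 did not pass with a replicate block (adjusted p = 0.0525 and 0.0708). The adjusted p was 0.011 for Timm44, the motor anchor, 0.0146 for Tomm20, the presequence receptor, and 0.0184 for Chchd7. Timm44 and Tomm20 fell in astrocyte and neuron sEVs and were at 0.28 and -0.13 in microglia, and Chchd7 fell in astrocyte sEVs and was at 0.52 and 0.72 in microglia and neurons.

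The authors' deposited table also holds a mean for microglia sEVs, which was not used above, and for 4 members that mean lies above every one of the 18 libraries. It is 65312.8 for Tomm40, whose microglia sEV libraries have 785 to 1866, and 8301.89 for Timm21, whose libraries have 0 to 268. It is 5837.65 for Tomm34 (889 to 3174) and 22.5096 for Tomm20l (0 in all 3). Of the 36 members, 14 have a deposited mean within the range of the 3 libraries widened by 0.1%, 18 below it and 4 above it. Over all 18481 genes with any value in these columns, the deposited mean equals the mean of the 3 libraries in 1477, within 0.01 plus 0.01% of that mean. For Chchd1, 1 of the 18 below, the deposited mean is 2130.49, where replicates 1, 2 and 3 have 2979, 3412 and 3500. Every microglia sEV result above rests on the 3 library columns. Why the deposited mean departs from them, and whether this touches 1 library more than the others, was not tested.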

How the results depend on the processing

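Of the 59 called differences of members between sEVs and cells, 39 stayed past the threshold with every alternative, 46 in every fit without 1 library, and 0 changed sign. With all libraries at the same total the members called higher in sEVs numbered 5 in astrocytes and 7 in neurons, and the F test called 6. With only the libraries of the groups compared, 2 were lower in astrocytes and 5 in neurons. Quantile normalization gave 7 F calls. Without 1 library the counts ranged from 14 to 15 higher and 4 to 5 lower for the mean of the types, 6 to 9 and 3 to 6 in astrocytes, 7 to 12 and 0 to 4 in microglia, 10 to 13 and 3 to 4 in neurons, and 2 to 7 for the F test.

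For the cell pairs, equal totals gave 27 higher and 0 lower for astrocytes against microglia, 6 higher for astrocytes against neurons, and 0 higher and 31 lower for microglia against neurons; quantile normalization gave 3 lower, 8 higher and 13 lower in that order. Without 1 library these counts ran from 14 to 19 and 4 to 5, 2 to 3 and 5 to 8, and 3 to 3 and 18 to 21. Compared for sign were the called differences and the uncalled sEV differences of members named in full. A change of sign was counted where the main fit or the alternative called the difference, and all 9 changes were in cell pairs. For astrocytes minus microglia they were Timm23 (0.32), Tomm22 (0.26), Tomm70a (0.17) and Timm17a (0.18) at equal totals and Timm23 (0.23) with quantile normalization. Of all the sign changes only that of Timm23 at equal totals was called in the new direction (limma adjusted p = 0.0126). For microglia minus neurons they were Tomm22 (-0.19) and Timm17a (-0.10) at equal totals and Tomm7 (0.028) and Chchd5 (0.14) with quantile normalization. The cause was not tested.

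The cell RNA came from part of the cells that had given the sEVs, and the main fit did not pair them. The labels do not say that the replicate number marks a shared culture. Over all genes tested, the deviations of same-numbered cell and sEV libraries from their group means correlated at -0.0396 to 0.0445. Those of different numbers correlated at -0.0567 to 0.0549. In neurons the same-numbered pairs were at 0.00923, 0.0425 and 0.0445, and the others at -0.0450 to 0.00495. Whether the number marks a pairing was not tested. With a replicate block the F test called 1 member and the microglia sEVs had 8 higher calls.

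The number of reads behind a value is unknown here, and 3 libraries a group limit the precision: SEs of the sEV differences within 1 cell type ran from 0.14 for Timm17a to 1.72 for the second Timm10b entry, and the log2 values of tested members with a library at 0 (Chchd10, Timm21, Tomm6os and that entry) depend on the pseudocount.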
